A study of Rattus norvegicus with 24 samples.

Results

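Cd7 (ENSRNOG00000036674) and Mcpt1l1 (ENSRNOG00000053494) are a lymphoid gene and a mast cell protease gene that were counted in RNA of immunomagnetically isolated rat microglia. They are 2 of 32754 gene rows in the count tables and 2 of the 12860 genes that passed the filter on low values. Both were chosen by measured values: the study lists them as higher in microglia of LPS-injected males after intermittent hypoxia (IH) than after normoxia (Nx). Every comparison of a male LPS group is therefore given below as a description, with no test. The comparisons among females and among vehicle-injected pups did not enter that choice and were tested. Tests of female LPS groups use no male LPS mean, but their variance estimates drew on samples that include the male LPS ones.

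The 24 samples were CD11b/c+ cells of Sprague-Dawley rat brains at postnatal day 9, with 3 samples in each of 8 groups. Pups of either sex were kept with their dams for 8 days from postnatal day 1 in Nx (room air, 21% oxygen) or in IH (oxygen alternating between 10.5% and 21% for 8 h of each day). About 16 h after the last exposure they were given vehicle or bacterial lipopolysaccharide (LPS) i.p. for 3 h, at a dose written as 0.1 mg/kg in the series text and as 0.1 mg/mL in the sample labels. The groups are named male or female, Nx or IH, and LPS where it was injected. A group without LPS in its name received vehicle, which is saline in the labels. No altered gene is named for any group, and the labels call the 3 samples of a group biological replicates without saying whether pups were pooled or litters shared.

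CD7 is a surface glycoprotein of the immunoglobulin superfamily that is known from T cells, natural killer cells and their early precursors, and it is not a usual product of microglia. Its known ligands include members of the SECTM1 family. Mcpt1l1 is named as a gene like mast cell protease 1, and the mast cell proteases of this family are chymases, serine proteases that mast cells store in their granules and release on activation. Mast cells are few in brain and lie mostly in the meninges and along vessels, and the preparation removed meninges and blood before the cells were bound to the columns through CD11b/c, a marker of microglia and other myeloid cells.

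In the RefSeq gene order, Cd7 lies beside Sectm1b and Sectm1a, rat genes of the SECTM1 family, and Mcpt1l1 lies between Mcpt1 and Mcpt10 in a cluster that also holds the genes of cathepsin G and of granzymes. Some of the copies in this cluster have like sequence around their start. The window from 250 bases before to 50 bases after the start of Mcpt1l1 shared 243 of 300 bases (81.0%) with that of its neighbour Mcpt1 in a gapped global alignment. The matching figures were 80.3% for Mcpt1l3, 78.0% for Mcpt3 and for Mcpt4, and 77.0% for Mcpt4l1. The other 13 windows of the family shared 38.7% to 47.7% by the same alignment. Mcpt1l1 and Mcpt1 are printed because they show how near the nearest copies are there. The windows lie mostly before the start, so likeness of the counted transcripts was not measured. Read counting leaves out reads that align to several places, so the count of Mcpt1l1 is uncertain in so far as its reads also align to a copy. Capitals mark TATAAA (the core of a TATA box) and GATAAG (a motif bound by GATA factors), each searched on both strands, and the sequences are from RefSeq, build GRCr8, at chr15:33876846-33877145 on the minus strand for Mcpt1l1 and chr15:33841356-33841655 on the plus strand for Mcpt1.
Mcpt1l1: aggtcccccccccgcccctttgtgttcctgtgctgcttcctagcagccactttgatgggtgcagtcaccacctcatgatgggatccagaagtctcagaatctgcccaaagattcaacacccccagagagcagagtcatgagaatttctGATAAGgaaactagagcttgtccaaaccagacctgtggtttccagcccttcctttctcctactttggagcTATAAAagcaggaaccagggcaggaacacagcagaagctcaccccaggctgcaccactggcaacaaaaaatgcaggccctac
Mcpt1: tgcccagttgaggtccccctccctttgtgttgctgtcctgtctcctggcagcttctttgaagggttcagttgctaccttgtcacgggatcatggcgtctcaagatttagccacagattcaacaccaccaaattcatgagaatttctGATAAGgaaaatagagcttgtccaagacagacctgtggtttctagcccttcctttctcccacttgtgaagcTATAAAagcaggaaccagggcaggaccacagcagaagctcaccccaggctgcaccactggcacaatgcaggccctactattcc

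Counted from 1 at the first base of the window, TATAAA began at base 219 in Mcpt1l1 and at base 218 in Mcpt1, and GATAAG began at bases 149 and 147. TATAAA was found in 4760 of all 33469 promoter windows (14.2%) and in 8 of the 19 windows of the family. GATAAG was found in 2360 of all windows (7.05%) and in 7 of the 19. A match is a description of the letters, and binding of a factor was not measured here.

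Total counts assigned to genes ran from 6624453 to 8548714 per sample (median 7532796.5). The labels on injection were checked with Cxcl10, an interferon-induced chemokine gene, which was at 3.99 to 14.1 CPM (read counts scaled to a common library size) in the 12 vehicle samples and 23.1 to 3190 CPM in the 12 LPS samples, with no overlap. One library stood apart: in male Nx sample 2, 23.4% of alignments were not unique, against 11.7% to 15.8% in the other 23 samples. It also held the highest Cd7 value, and the results for which leaving it out mattered are also given without it. Lists of defining markers for microglia, T and natural killer cells, mast cells and 10 other lists held 197 symbols, but the count rows carry Ensembl identifiers and only 1 of these symbols, Mcpt1l1 itself, could be paired with a row. The labelled cell type and the presence of other cell types were therefore not checked against markers.

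Cd7 was a low count in most samples and a much higher one in a few, and the few were not one group. In counts, the 3 male Nx samples held 26, 287 and 11 reads, the male IH samples 12, 187 and 14, the male Nx LPS samples 7, 7 and 11, and the male IH LPS samples 23, 101 and 200. The female Nx samples held 18, 35 and 19 reads, the female IH samples 25, 19 and 11, the female Nx LPS samples 14, 119 and 7, and the female IH LPS samples 24, 214 and 72. A single high sample thus stood beside a pair of low ones in male Nx, male IH and female Nx LPS, while male IH LPS and female IH LPS each held a pair of higher samples and a low one. Over the 24 samples Cd7 summed to 1463 reads. The exact Poisson 95% interval is 2.81 to 14.4 for a count of 7 and 255 to 322 for a count of 287, which covers counting error only.

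On the CPM scale, with library sizes scaled by TMM, Cd7 spanned 43.9-fold, from 0.933 to 41.0 CPM, with a median of 2.78 and a mean of 8.03 CPM. Without male Nx sample 2 the span was 29.4-fold, up to 27.4 CPM, and the mean 6.6 CPM. In male Nx it was 3.2, 41.0 and 1.3 CPM, and in male IH 1.63, 22.6 and 1.78 CPM. In male Nx LPS it was 0.983, 0.969 and 1.58 CPM, and in male IH LPS 2.97, 14.0 and 25.5 CPM. The male Nx LPS group was the only male group with no sample above 2 CPM.
In females, Cd7 was 2.58, 4.88 and 2.33 CPM in Nx and 3.48, 2.71 and 1.38 CPM in IH. After LPS it was 2.11, 15.2 and 0.933 CPM in female Nx and 2.86, 27.4 and 9.33 CPM in female IH. No vehicle-injected female exceeded 4.88 CPM, and the LPS females included 3 samples above it.

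In sorted order, the 24 Cd7 values had their widest gap between 4.88 and 9.33 CPM, a ratio of 1.91 where the next widest was 1.5. Any set of values has a widest gap, and gaps of other genes were not measured for comparison, Mcpt1l1 apart. The gap serves here only to divide the samples for description. Below the gap were 17 samples and above it 7. The 7 came from 5 of the 8 groups, 4 were male and 5 had received LPS. The 6 highest samples held 75.7% of all Cd7 reads and averaged 24.3 CPM. Of the 7 samples above the gap, 0 carried replicate number 1, 5 carried number 2 and 2 carried number 3, and sample 2 was the highest of its group in 5 of the 8 groups. The labels do not say that the number marks a litter, a day or a batch, and the number was entered as a block only to see how the values moved. With it, the log2 fold change of Cd7 went from 2.01 to 1.00 between the sexes in vehicle samples (male minus female) and from 0.91 to 0.34 with LPS in female Nx, comparisons that are described below. In bulk samples such as these, a change in the number of cells of a type and a change in RNA per cell cannot be told apart.

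Mcpt1l1 was counted in all samples at intermediate levels, and its widest gap was narrower than that of Cd7. The male Nx samples held 110, 107 and 112 reads, the male IH samples 66, 25 and 67, the male Nx LPS samples 44, 92 and 88, and the male IH LPS samples 389, 172 and 192. The female Nx samples held 57, 190 and 239 reads, the female IH samples 158, 461 and 30, the female Nx LPS samples 219, 53 and 150, and the female IH LPS samples 184, 71 and 16. In each female group the highest count was more than 3 times the lowest, and in CPM the ratio was 1.16 to 2.97 in the male groups. The total was 3292 reads.

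In CPM, Mcpt1l1 spanned 31.6-fold, from 2.07 to 65.7 CPM, with a median of 13.4 and a mean of 18.4 CPM. In male Nx it was 13.5, 15.3 and 13.2 CPM, and in male IH 8.97, 3.02 and 8.51 CPM. In male Nx LPS it was 6.18, 12.7 and 12.7 CPM, and in male IH LPS 50.2, 23.9 and 24.5 CPM. The male groups were thus ordered with IH lowest and IH LPS highest.
In females it was 8.16, 26.5 and 29.4 CPM in Nx and 22.0, 65.7 and 3.77 CPM in IH. After LPS it was 33.0, 6.79 and 20 CPM in female Nx and 21.9, 9.11 and 2.07 CPM in female IH. The female groups overlapped throughout, and female IH held both the highest Mcpt1l1 value of the series and 1 of the 3 lowest. The widest gap lay between 3.77 and 6.18 CPM (ratio 1.64, next 1.52), with 3 samples below and 21 above, and the 6 highest samples held 51.3% of its reads.

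**Figure D1:**
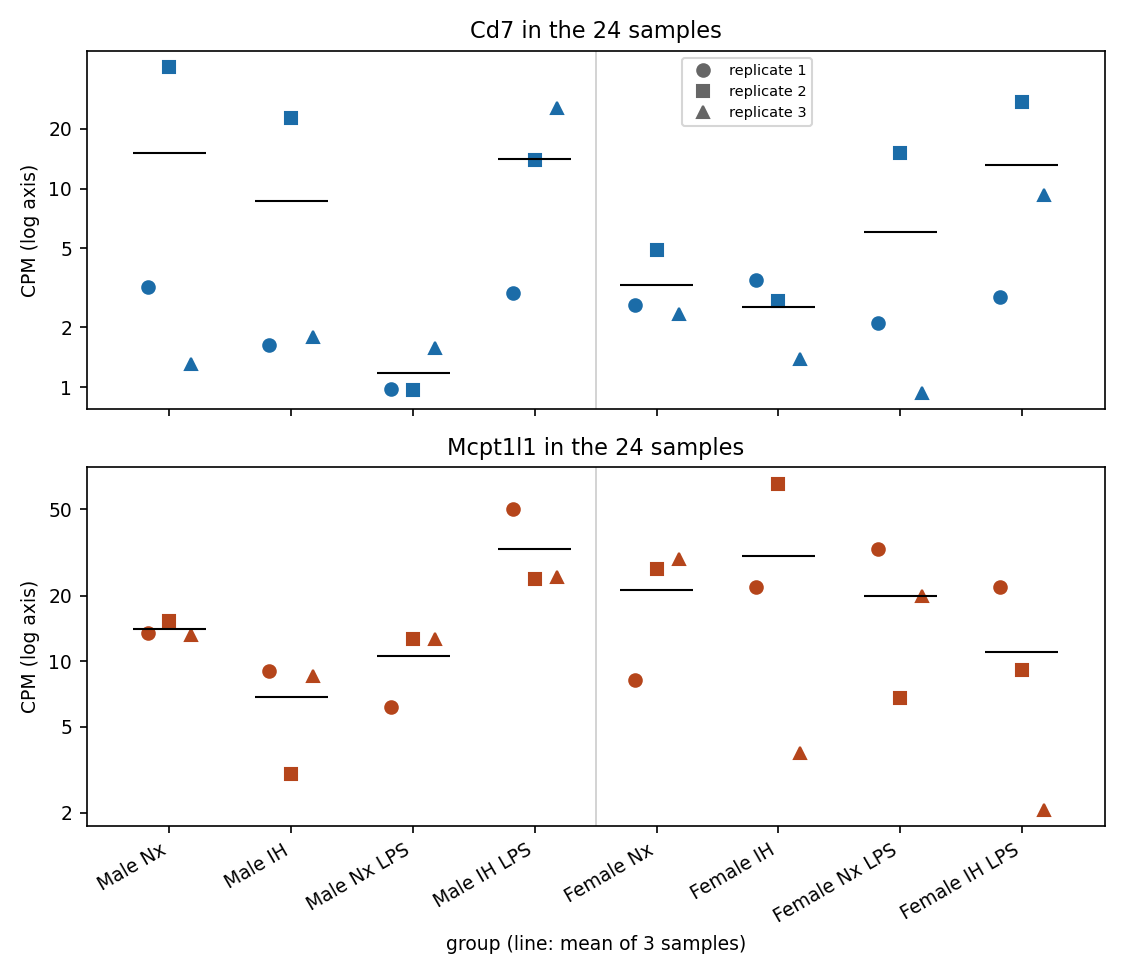
CPM on a log axis for Cd7 (upper panel) and Mcpt1l1 (lower panel) in the 24 samples by group, with a symbol for each replicate number and a line at the mean of the 3 samples. Cd7 was above 9 CPM in 7 samples from 5 groups and below 5 CPM in the other 17. Mcpt1l1 ran from 2.07 to 65.7 CPM, with a widest gap of ratio 1.64 against 1.91 for Cd7.

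Ordered by mean CPM, Cd7 was highest in male Nx (15.2 ± 22.4, SD, n = 3), followed by male IH LPS (14.2 ± 11.3), female IH LPS (13.2 ± 12.7), male IH (8.66 ± 12.1), female Nx LPS (6.1 ± 7.94), female Nx (3.26 ± 1.41), female IH (2.52 ± 1.06) and male Nx LPS (1.18 ± 0.349). In 7 of 7 neighbouring pairs the ranges of the samples overlapped. By the median, male IH LPS (14.0 CPM) and female IH LPS (9.33 CPM) came first and no other group passed 3.2 CPM, so the place of male Nx at the top rested on its sample 2, without which its mean was 2.25 CPM. Mcpt1l1 was highest in male IH LPS (32.9 ± 15 CPM), followed by female IH (30.5 ± 31.8), female Nx (21.3 ± 11.5), female Nx LPS (19.9 ± 13.1), male Nx (14.0 ± 1.11), female IH LPS (11.0 ± 10.1), male Nx LPS (10.5 ± 3.76) and male IH (6.83 ± 3.31). Here too the ranges overlapped in 7 of 7 neighbouring pairs.

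The spread between samples of the same group was among the widest measured. The pooled SD of log2 CPM within groups was 1.56 for Cd7, which ranked 35 of 12860 genes (0.264% of genes had a larger one), and 1.15 for Mcpt1l1, which ranked 115 (0.886%). The median of all tested genes was 0.34. Without male Nx sample 2, Cd7 was at 1.36 (rank 64) and Mcpt1l1 at 1.19 (rank 105), and the median was 0.33. Among genes whose mean CPM lay within 1.5-fold of the member's, 6 of 1456 were more variable than Cd7 and 17 of 2176 were more variable than Mcpt1l1, with medians of 0.40 and 0.32. The biological coefficient of variation from edgeR was 0.912 for Cd7 and 0.637 for Mcpt1l1 against a median of 0.222. The choice by a male difference did not use these spreads directly, but it used 6 of the 24 samples, and the ranks are given as a description. Groups accounted for 33.3% of the variance of Cd7 and 35.5% of that of Mcpt1l1, against a median of 35.1% for all tested genes. These shares were not adjusted for the number of groups. Means of so few samples differ by chance alone, so part of each share would arise without any effect of sex, oxygen or LPS. How far the shares exceed that part was not tested, and no effect of the groups is read from them.

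**Figure D2:**
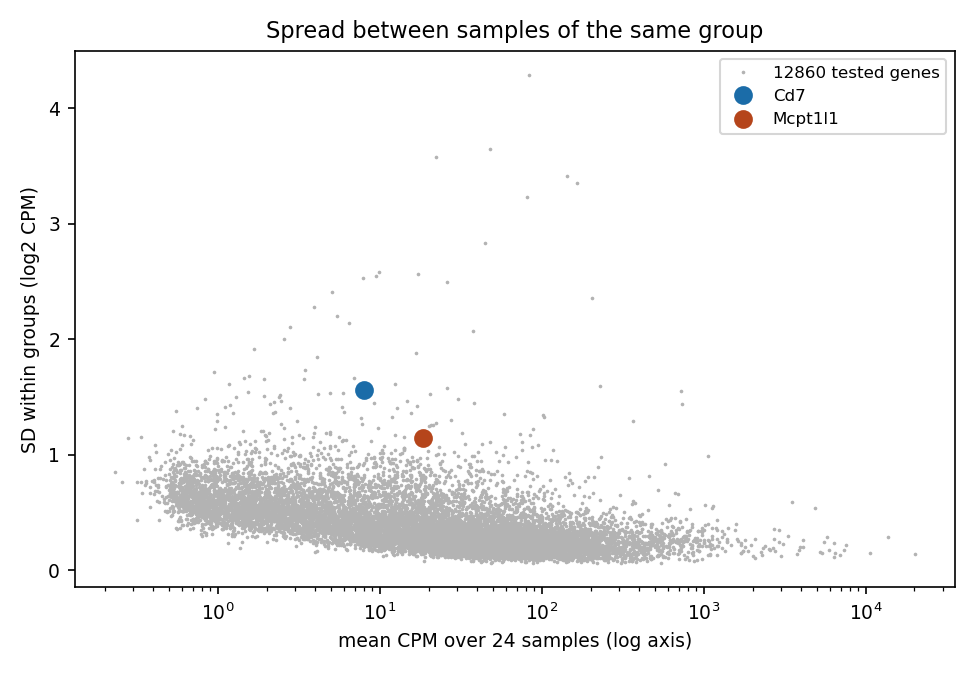
Pooled SD of log2 CPM within groups against mean CPM over 24 samples (log axis), with 1 grey point for each of the 12860 tested genes. Cd7 (1.56) and Mcpt1l1 (1.15) lie above most genes of like mean, whose medians were 0.40 and 0.32.

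Within groups, the variance of the Cd7 counts divided by their mean, which is near 1 for pure counting error, was 223 in male Nx, 142 in male IH, 94.5 in female IH LPS, 84.4 in female Nx LPS and 72.9 in male IH LPS. It was 3.79 in female Nx, 2.69 in female IH and 0.64 in male Nx LPS. In male Nx it was 6.08 when sample 2 was left out, so that the ratio there was set mostly by that sample. For Mcpt1l1 this ratio was 226 in female IH, 81.2 in female IH LPS, 54.7 in female Nx and 49.4 in female Nx LPS. In males it was 57.3 after both IH and LPS, 10.9 after IH, 9.5 after LPS in Nx and 0.0578 in Nx. The highest sample was 17.4 times the lowest in female IH and 1.16 times in male Nx.

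Neither gene was called for LPS in females by edgeR's quasi-likelihood test with Benjamini-Hochberg adjustment. With 3 samples a group and the spread above, this does not show that they were unchanged. In female Nx, LPS altered 827 of 12860 genes (6.43%; 578 higher, 249 lower), and Cd7 differed by a log2 fold change of 0.91 (SE 1.21, adjusted p = 0.734). This was turned by 1 library, since without female Nx LPS sample 2 the value was -1.10. Mcpt1l1 differed by -0.10 (SE 0.77, adjusted p = 0.962), and its sign changed without female Nx sample 2 (0.08), female Nx sample 3 (0.20) or female Nx LPS sample 2 (0.31). In female IH, LPS altered 416 genes (3.23%; 321 higher, 95 lower). The log2 fold change of Cd7 was 2.39 (SE 1.23, adjusted p = 0.397), with the 3 LPS samples at 2.86, 27.4 and 9.33 CPM overlapping the vehicle samples. It was 1.27 without female IH LPS sample 2. That of Mcpt1l1 was -1.46 (SE 0.78, adjusted p = 0.421), again with overlap, and it was -0.21 without female IH sample 2 and -2.44 without female IH LPS sample 1. The unadjusted p-values from edgeR for these last differences were 0.0667 and 0.0773.

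No difference between IH and Nx passed in the comparisons that could be tested. In vehicle females, IH against Nx gave -0.37 for Cd7 (SE 1.28, adjusted p = 1 by edgeR) and 0.49 for Mcpt1l1 (SE 0.73, adjusted p = 1), and the signs turned without female Nx sample 2 (0.02 for Cd7) and without female IH sample 2 (-0.72 for Mcpt1l1). In LPS females the values were 1.14 for Cd7 (SE 0.97, adjusted p = 1 by edgeR) and -0.82 for Mcpt1l1 (SE 0.69, adjusted p = 1). The Cd7 value was 0.01 without female IH LPS sample 2 and 3.14 without female Nx LPS sample 2, and the Mcpt1l1 value was -0.25 without female Nx LPS sample 1 and -1.80 without female IH LPS sample 1. In vehicle males they were -0.82 for Cd7 (SE 1.11, adjusted p = 1 by edgeR) and -1.05 for Mcpt1l1 (SE 0.77, adjusted p = 1). Without male Nx sample 2 the Cd7 value in vehicle males became 1.93, and without male IH sample 2 it became -3.15. By edgeR, 0 of 12860 genes (0%) passed in each of these 3 comparisons, with 143, 183 and 124 genes at an unadjusted p under 0.05, and DESeq2 called 0, 0 and 4. The study's own edgeR run lists Cyp4f39 in vehicle females, Gpr15l and AC134224.3 in vehicle males, and RGD1561143, Il1a, Plat and S1pr3 in LPS females. Why the 2 runs differ was not tested.

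The difference between the LPS response after IH and that after Nx in females was 1.47 for Cd7 (SE 1.72, adjusted p = 1 by edgeR) and -1.35 for Mcpt1l1 (SE 1.09, adjusted p = 1). It was 0.36 for Cd7 without female IH LPS sample 2 and 3.49 without female Nx LPS sample 2, and for Mcpt1l1 it was -0.11 without female IH sample 2 and -2.33 without female IH LPS sample 1. In this interaction 0 genes (0%) passed by edgeR, 229 had an unadjusted p under 0.05, and DESeq2 called 0. The vehicle samples of both oxygen groups were also compared between the sexes. Male minus female, the log2 fold change of Cd7 was 2.01 (SE 0.86, adjusted p = 0.377 by edgeR), which was 0.64 without male Nx sample 2. That of Mcpt1l1 was -1.37 (SE 0.53, adjusted p = 0.377 by edgeR), and it was -0.76 without female IH sample 2. The unadjusted p-values from edgeR were 0.0362 and 0.025. In this comparison 9 genes (0.07%; 6 higher in males, 3 lower) passed, and 1705 had an unadjusted p under 0.05. Neither member was called in any of the 7 tested comparisons. These comparisons share samples with each other, and the median log2 fold change of all tested genes was between -0.06 and 0.03 in each.

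In LPS males, the comparison behind the choice, Cd7 was higher after IH by a log2 fold change of 3.57 (SE 1.14) and Mcpt1l1 by 1.63 (SE 0.70). Both genes had all 3 IH LPS samples above all 3 Nx LPS samples, as did 256 of 12860 genes (1.99%), from which nothing is read because this contrast chose the members. For Cd7 the nearest samples were 2.97 CPM in male IH LPS and 1.58 CPM in male Nx LPS, counts of 23 and 11 reads. For Mcpt1l1 they were 23.9 and 12.7 CPM. Leaving out 1 sample at a time gave 2.84 to 4.06 for Cd7 and 1.21 to 1.8 for Mcpt1l1, which is a description of the same contrast.

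The remaining comparisons with male LPS samples are also descriptions. LPS in male Nx gave -3.66 for Cd7 (SE 1.35), which was -0.92 without male Nx sample 2 and -2.77 with the replicate number as a block. It gave -0.41 for Mcpt1l1 (SE 0.79), which was -0.14 without male Nx LPS sample 1. LPS in male IH gave 0.70 for Cd7 (SE 1.12), which was 3.04 without male IH sample 2 and -0.04 without male IH LPS sample 3, and 2.27 for Mcpt1l1 (SE 0.81). The Cd7 samples overlapped in both. All 3 Mcpt1l1 samples of male Nx LPS were below all 3 of male Nx, as for 1122 genes (8.72%), and all 3 of male IH LPS were above all 3 of male IH, as for 935 genes (7.27%). In vehicle males, all 3 Mcpt1l1 samples of IH were below all 3 of Nx, as for 262 genes (2.04%). No female comparison separated the groups for either gene.

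**Figure D3:**
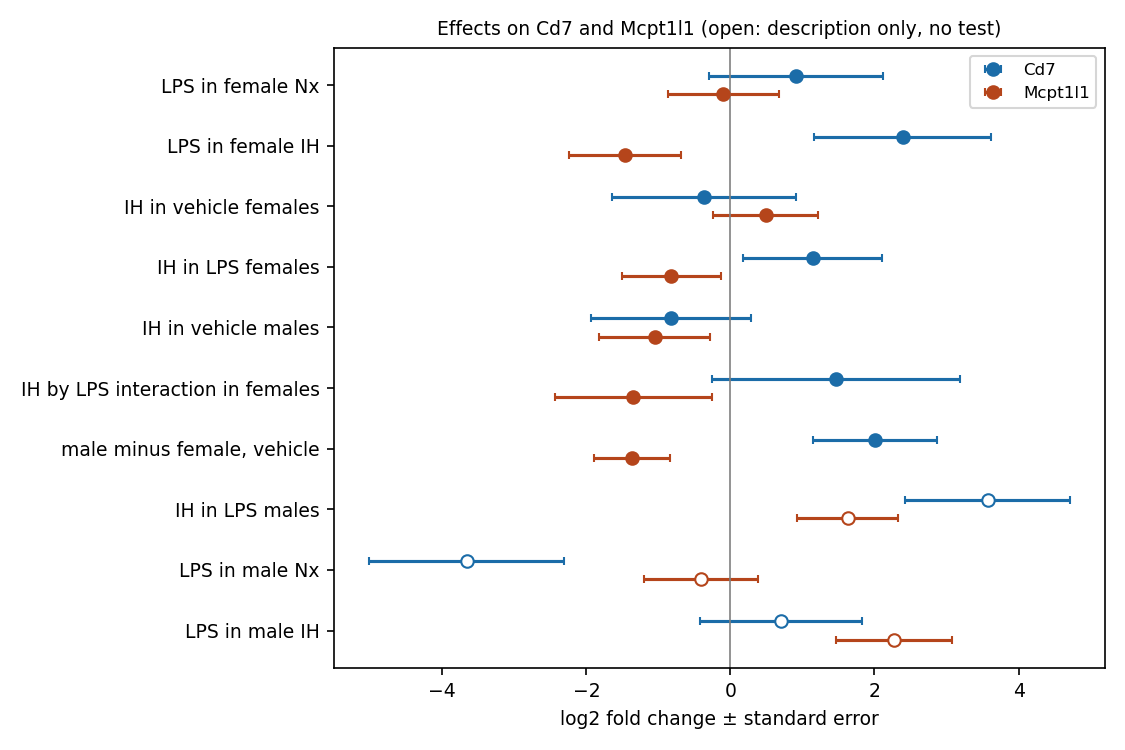
Log2 fold change with its standard error (derived from edgeR's F statistic) for Cd7 and Mcpt1l1 in 10 comparisons, with filled points for the 7 that were tested and open points for the 3 that compare a male LPS group. The tested values ran from -1.46 to 2.39, none passed the threshold, and the widest open values were 3.57 and -3.66, both of Cd7.

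Cd7 had no close partner of positive r among the tested genes. Likeness was measured as Pearson's r of log2 CPM over the 24 samples, which share their libraries, and is a description with no p. The highest r for Cd7 was 0.664, with ENSRNOG00000011518 (Spearman's rho 0.704, and r 0.591 without the 2 samples farthest from the median of Cd7), a gene at 0.533 to 2.29 CPM on 4 to 19 reads. No gene reached an r of 0.8 with Cd7, whereas over all tested genes the median number of such partners was 31 and the median best r was 0.882. Without male Nx sample 2 the best r of Cd7 was 0.621, with another gene. The most negative r of Cd7 over 24 samples was -0.756, larger in size than its best, and negative r did not count toward partners. Over 24 samples, 2.47% of genes had a lower best r than Cd7, and 24.5% had no partner at 0.8. ENSRNOG00000011518 was singled out after its values were seen, as were the other genes without a symbol here.

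Mcpt1l1 had a small set of close partners. Its best r was 0.953, with ENSRNOG00000020563 (rho 0.957, and r 0.936 without the 2 farthest samples), and 3 other genes without a symbol here had r of 0.889, 0.856 and 0.836. The fifth was at 0.722. Among the 4 partners, r ran from 0.802 to 0.917. ENSRNOG00000020563 had 13 to 210 reads per sample, 1.69 to 27.1 CPM. In male IH LPS it was at 10.2, 11.0 and 27.1 CPM (lowest, median and highest), above the 4.17, 5.68 and 5.76 CPM of male Nx LPS, and in male IH at 1.93, 3.17 and 6.25 CPM, below the 6.6, 6.71 and 8.12 CPM of male Nx. Of all tested genes, 1.99% and 2.04% were separated in these ways. Nothing is read from this, because the partner was picked by its likeness to Mcpt1l1 over the same samples. The other 3 partners were less separated. In order of their r, they were at 7.53 to 32.5, 2.09 to 6.07 and 1.39 to 5.17 CPM in male IH LPS against 4.85 to 9.92, 0.831 to 1.12 and 1.29 to 1.94 CPM in male Nx LPS, with overlap in the first and the last, and all 3 overlapped between male IH and male Nx. In the female groups ENSRNOG00000020563 overlapped as Mcpt1l1 did, with 3.58 to 11.9 CPM in Nx, 1.76 to 24.9 CPM in IH, 3.46 to 13.7 CPM in Nx LPS and 1.69 to 11.4 CPM in IH LPS.

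The partners were picked on these same samples, so their values within subsets are a description. For ENSRNOG00000020563 and Mcpt1l1, r was 0.974 in the 12 vehicle samples, 0.934 in the 12 LPS samples, 0.915 in the 12 males, 0.979 in the 12 females and 0.949 for the deviations of all 24 samples from their group means. For the other 3 partners r in these subsets ran from 0.635, in males, to 0.96, in females. All 4 partners had male IH LPS sample 1 and female IH sample 2 as their highest samples, which were also the highest for Mcpt1l1. The ratio of ENSRNOG00000020563 to Mcpt1l1 in CPM stayed between 0.33 and 0.932 (median 0.452) while Mcpt1l1 itself moved 31.6-fold.

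**Figure D4:**
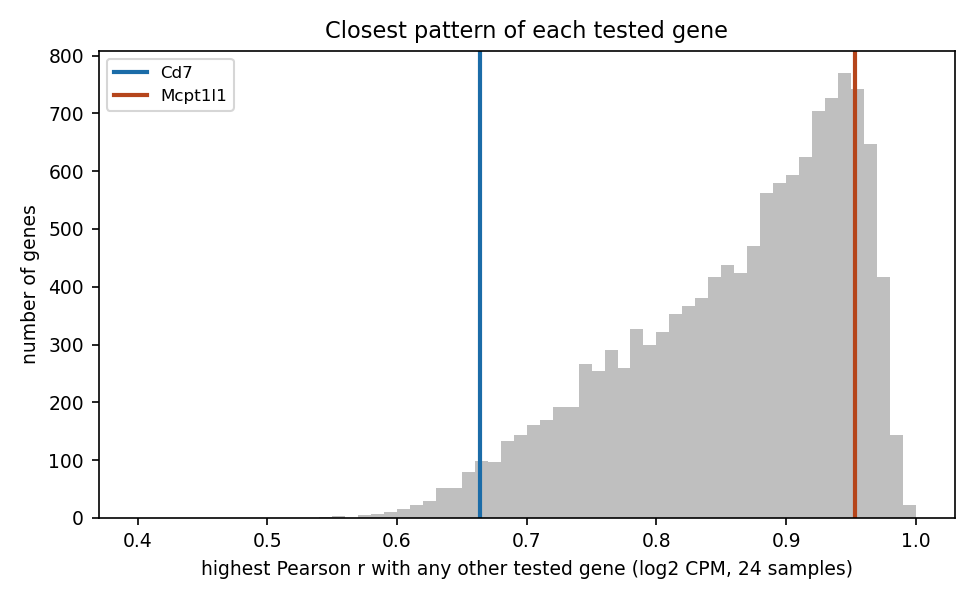
Number of tested genes by their highest Pearson r with any other tested gene (log2 CPM, 24 samples), with lines at Cd7 (0.664) and Mcpt1l1 (0.953). The median gene was at 0.882, so that Cd7 lies in the low tail and Mcpt1l1 to the right of the median.

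Cd7 and Mcpt1l1 did not vary together. Over the 24 samples r was -0.129 (rho 0.0835), and it was -0.105 in vehicle samples, -0.159 in LPS samples, 0.101 in males, -0.374 in females and -0.275 for deviations from group means. Male Nx sample 2 and female IH sample 2, each the highest sample for one of the genes, were at 15.3 CPM for Mcpt1l1 and 2.71 CPM for Cd7, near the other gene's median.

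**Figure D5:**
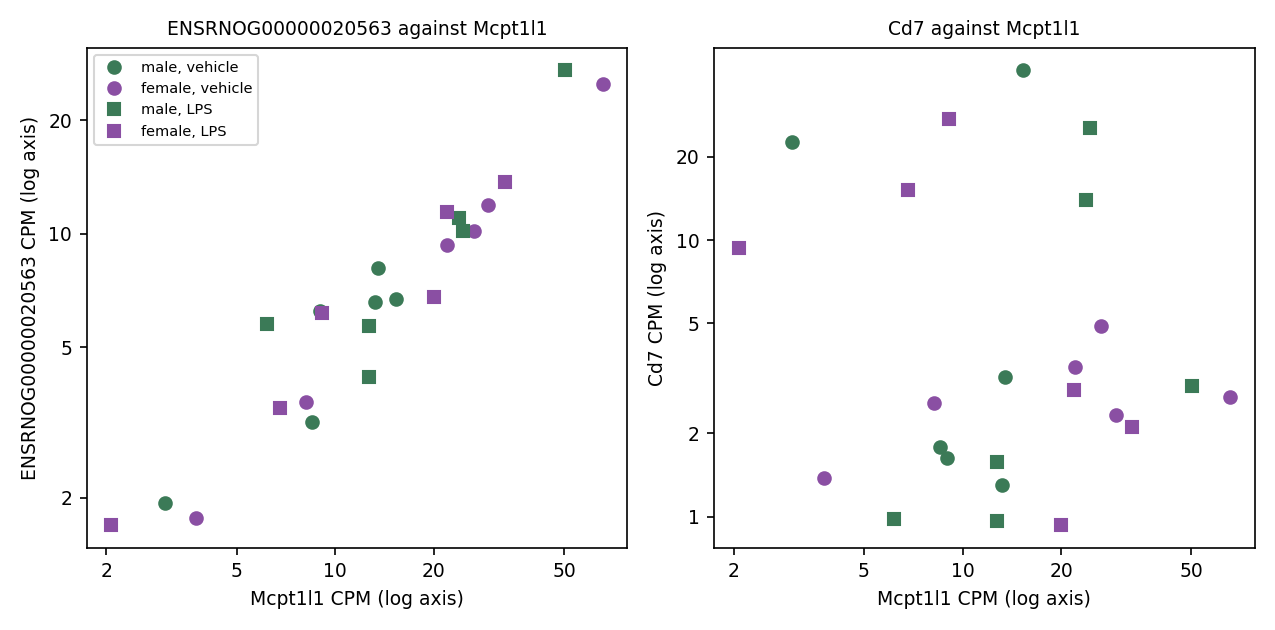
CPM of ENSRNOG00000020563 (left) and of Cd7 (right) against CPM of Mcpt1l1 in the 24 samples, both axes on a log scale, with symbols for injection and colours for sex. The left points lie along a line (r = 0.953) and the right points do not (r = -0.129).

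For each member, 20 other tested genes had a symbol, the other member among them, and many of these are inflammatory genes known to respond to LPS. The closest to Cd7 among the genes with a symbol were Cyp4f39 (r = 0.137), Gpr15l (0.114), the endothelial selectin gene Sele (0.0834), the neutrophil-attracting chemokine gene Cxcl1 (0.0538) and Csf3 (0.0498), which codes for a granulocyte growth factor. The closest to Mcpt1l1 were S1pr3 (0.281), a receptor gene for sphingosine 1-phosphate, RGD1561143 (0.0994), Cyp4f39 (0.0767), AC134224.3 (0.0627) and Slc25a45 (0.0516). Over the 20 genes, r ran from -0.172 to 0.137 for Cd7 and from -0.262 to 0.281 for Mcpt1l1.

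Library measures were set beside both genes. Cd7 had r of 0.27 with total counts, -0.383 with the share of alignments outside any gene and 0.373 with the share of alignments that were not unique. The last fell to -0.0377 without male Nx sample 2. For Mcpt1l1 the r with these measures and with the share of ambiguous alignments ran from -0.283 to 0.173. The shares themselves were 14.7% to 21.2% outside any gene and 0.265% to 0.435% ambiguous, and their part in the results was not tested.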

How the data were processed

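RNA of 24 samples was prepared with a stranded mRNA kit and sequenced on an Illumina HiSeq. The authors aligned reads with TopHat2 2.1 to rn6 (per the labels) and deposited raw counts per Ensembl gene from HTSeq with the reverse-strand option; the annotation release is not given in the sources used here. Rows for alignments that were not unique, ambiguous or outside genes were left out of library sizes. Symbols of 21 identifiers came from the study's pairing, and the reference table (47357 genes) had 0 Ensembl identifiers, so the marker lists of the planned analysis could not be counted.

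Genes above 1 CPM in at least 3 of 24 samples were kept (12860; Cd7 passed in 21 samples, Mcpt1l1 in 24), TMM-scaled and tested in edgeR 4.0.16 under R 4.3.3 with the quasi-likelihood F test, 1 mean per group, Benjamini-Hochberg over all tested genes, FDR 0.05, in all 24 samples for LPS and interaction and in the 12 vehicle or 12 LPS samples for oxygen and sex. Log2 CPM used a prior count of 2. Each SE was derived as the size of the log2 fold change divided by the square root of the edgeR F statistic. Alternatives included DESeq2 1.42.0 and leaving out each sample. Scripts were tested on simulated data. Named genes were both members and the 5 genes with a symbol most like each. The members and lists were chosen with earlier results of these data known. No 2 samples of a group were alike within sampling noise (lowest chi-square per degree of freedom 7.88 over 24 pairs). The deviations of same-numbered samples from their group means were not correlated above 0.1 in all 3 pairs of any of the 5 tested comparisons of 2 groups, sex and interaction not being checked (nearest IH in vehicle males, 0.103, 0.0791 and 0.239); in LPS in male Nx, a description, they were (0.165, 0.378 and 0.279). Values without male Nx sample 2 for the spread were added after seeing the data.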

Additional observations from a re-analysis of the deposited data

Results flagged for a closer look

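Of 16 pairs of effects compared for both genes, 2 had every sample of one group move one way and every sample of the other the opposite way, and both are the same difference seen from 2 sides. For Mcpt1l1, LPS gave a log2 fold change of -0.41 in male Nx, with all 3 samples lower, and 2.27 in male IH, with all 3 higher, so the second was larger by 2.68. In male Nx the nearest samples were 12.7 CPM with LPS and 13.2 CPM with vehicle, and the value was -0.14 without male Nx LPS sample 1. Likewise IH gave -1.05 in vehicle males, with all 3 samples lower, and 1.63 in LPS males, with all 3 higher, again a difference of 2.68. Both use the male LPS samples on which the gene was chosen, and the difference was not tested. In females the same difference was -1.35 (SE 1.09, adjusted p = 1 by edgeR), and -0.11 without female IH sample 2 and -2.33 without female IH LPS sample 1. Cd7 had no such pair. With 3 samples a group, Dixon's outlier test was not run.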

How the results depend on the processing

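Neither gene passed the threshold in any tested comparison under any alternative run (adjusted p from 0.136 to 1). Leaving out 1 sample gave -1.10 to 1.42 for Cd7 and -0.68 to 0.31 for Mcpt1l1 under LPS in female Nx (sign turned without female Nx LPS sample 2 for both, and for Mcpt1l1 also at 0.08 and 0.20 without female Nx samples 2 and 3), -0.68 to 0.02 and -0.72 to 1.02 under IH in vehicle females, -3.15 to 1.93 for Cd7 under IH in vehicle males, -4.21 to -0.92 and -0.04 to 3.04 for Cd7 under LPS in male Nx and male IH. The number of genes called ran from 335 to 786 under LPS in female Nx, 153 to 473 under LPS in female IH and 0 to 2 under IH in vehicle males when 1 sample was left out; fewer samples were then tested. It was 482 for LPS in female Nx when only the samples compared were fitted, and DESeq2 called 678 for LPS in female IH, 4 for IH in vehicle males and 32 for sex; the cause was not tested. The labels tie the samples by no more than a replicate number. With it as a block, Cd7 differed by 1.00 between the sexes (adjusted p = 0.454 by edgeR) and by 0.34 and 1.79 with LPS in female Nx and female IH, counts of calls were 811 and 407 there, no call of either gene changed, and LPS in male Nx, whose same-numbered samples deviated together, gave -2.77 in place of -3.66 for Cd7. Spearman's rho between the genes was 0.0835 against Pearson's r of -0.129. Of 248 values of the genes under alternatives, 9 changed sign, 8 of them on leaving out a sample and the other under Spearman's rho, and none of those with a test crossed the threshold. Leaving out 1 sample gave 0.01 to 3.14 for Cd7 and -1.80 to -0.25 for Mcpt1l1 under IH in LPS females, and 0.36 to 3.49 and -2.33 to -0.11 for the interaction in females. Counts of 7 to 35 reads, as Cd7 had in the 17 samples below the gap, limit the precision of its lower range.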
